A study of Mus musculus with 6 samples.

Results

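The 37 genes described here encode cyclins and their kinases, the E2F factor E2f1 and the pocket proteins that bind E2F, origin licensing and replication factors, and proteins of mitosis. They were taken from a list of names, with no threshold on their values, but the list was chosen with earlier results of these data known. Of the 37, 36 had a probe set with a single gene symbol, among 18193 genes measured in all, and where a gene had several, its brightest probe set over the 6 arrays was used. Ccnb1, a cyclin of mitosis, had no such probe set, so its level was not analysed here and only its promoter window was used.

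The series compared untreated E14Tg2a cells, an established mouse embryonic stem (ES) cell line, with cells given activin or SB431542, on Affymetrix expression arrays with 2 arrays per group. All 3 groups grew in N2B27, a serum-free medium, with BMP4 at 20 ng/ml and leukaemia inhibitory factor (LIF) at 1000 U/ml. Activin, a ligand of the TGF-beta family, was given at 10 ng/ml for 2 h. SB431542, an inhibitor of the type I receptor kinases for activin, Nodal and TGF-beta, was given at 5 µM for 24 h. The labels name no vehicle for control cells, and the treated groups differ in duration as well as in agent. Whether replicate arrays stem from different cultures is not said in the labels, so each p-value reflects array-to-array spread that may be technical.

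Cyclin D with Cdk4 or Cdk6, and cyclin E with Cdk2, phosphorylate the pocket proteins Rb1, Rbl1 and Rbl2, and this frees E2F factors to activate genes for S phase. Cdc6 and Cdt1 load the Mcm complex onto origins in G1, and cyclin B with Cdk1, the Aurora and Polo kinases, the spindle checkpoint and cohesin carry cells through mitosis. Mouse ES cells are known for rapid cycles with a short G1 phase and for cyclin E and Cdk2 activity that varies little through the cycle.

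Most of these genes differed little between the groups. After SB431542, 23 of the 36 lay within 0.15 log2 units of the control mean (63.9%, against 42.2% of all genes and 53.1% of genes with a mean over log2 8). After activin 31 of the 36 did (86.1%, against 55.5% of all genes and 77.4% of genes with a mean over log2 8). The members that stood out were Rad21, a subunit of the cohesin ring that holds sister chromatids together, and Ect2, an activator of the GTPase RhoA in cytokinesis. Both were higher than control on all 4 treated arrays, Rad21 by 84.6% after SB431542 and 50.5% after activin, and Ect2 by 49.9% and 41.0%. Ccnd1 and Ccne1, a D cyclin and an E cyclin, were lower after SB431542 on their brightest probe sets, at 0.755 and 0.812 of the control level.

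The tests set how firmly this can be put. Differences were tested on the log2 scale in limma, with Benjamini-Hochberg adjustment over all 45037 probe sets and a threshold of 0.05. At default settings 0 of the 36 members passed in any of the 3 comparisons, while 4 passed an unadjusted p of 0.05 for SB431542 against control, 2 for activin against control and 2 for activin against SB431542. These are 11.1%, 5.56% and 5.56% of the members, against 13.7%, 5.24% and 10.3% of all genes at the same unadjusted p. Of genes with a mean over log2 8, 13.6%, 1.74% and 9.39% passed it. The background at default settings was 0.0275% of genes for SB431542 against control, 0% for activin against control and 0.0330% for activin against SB431542. When the prior variance followed the intensity of the probe set and was estimated robustly, here called the intensity trend, 4 members passed for SB431542, 2 for activin and 2 between the treatments. In what follows, a gene is said to have risen or fallen only where it passed with the intensity trend.

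With the intensity trend, Rad21 and Ect2 rose and Ccnd1 and Ccne1 fell after SB431542, which is 11.1% of the 36 members. The same rule called 6.48% of all genes, 4.25% higher and 2.23% lower, and 13.1% of the 6493 genes with a mean over log2 8, so the share among the members was near the background of bright genes. Rad21 and Ect2 also rose after activin, where 0.148% of all genes and 0.323% of those over log2 8 passed (0.137% of genes higher). Between the treatments, Ccnd3 and Rad21 were lower after activin than after SB431542, where 3.37% of all genes and 6.21% of those over log2 8 passed (2.12% of genes lower). The comparisons with control share the 2 control arrays, so a control value that is off moves both in the same way. Since the members were chosen with earlier results of these data known, their shares beside the background are a description and not a test.

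**Figure D1:**
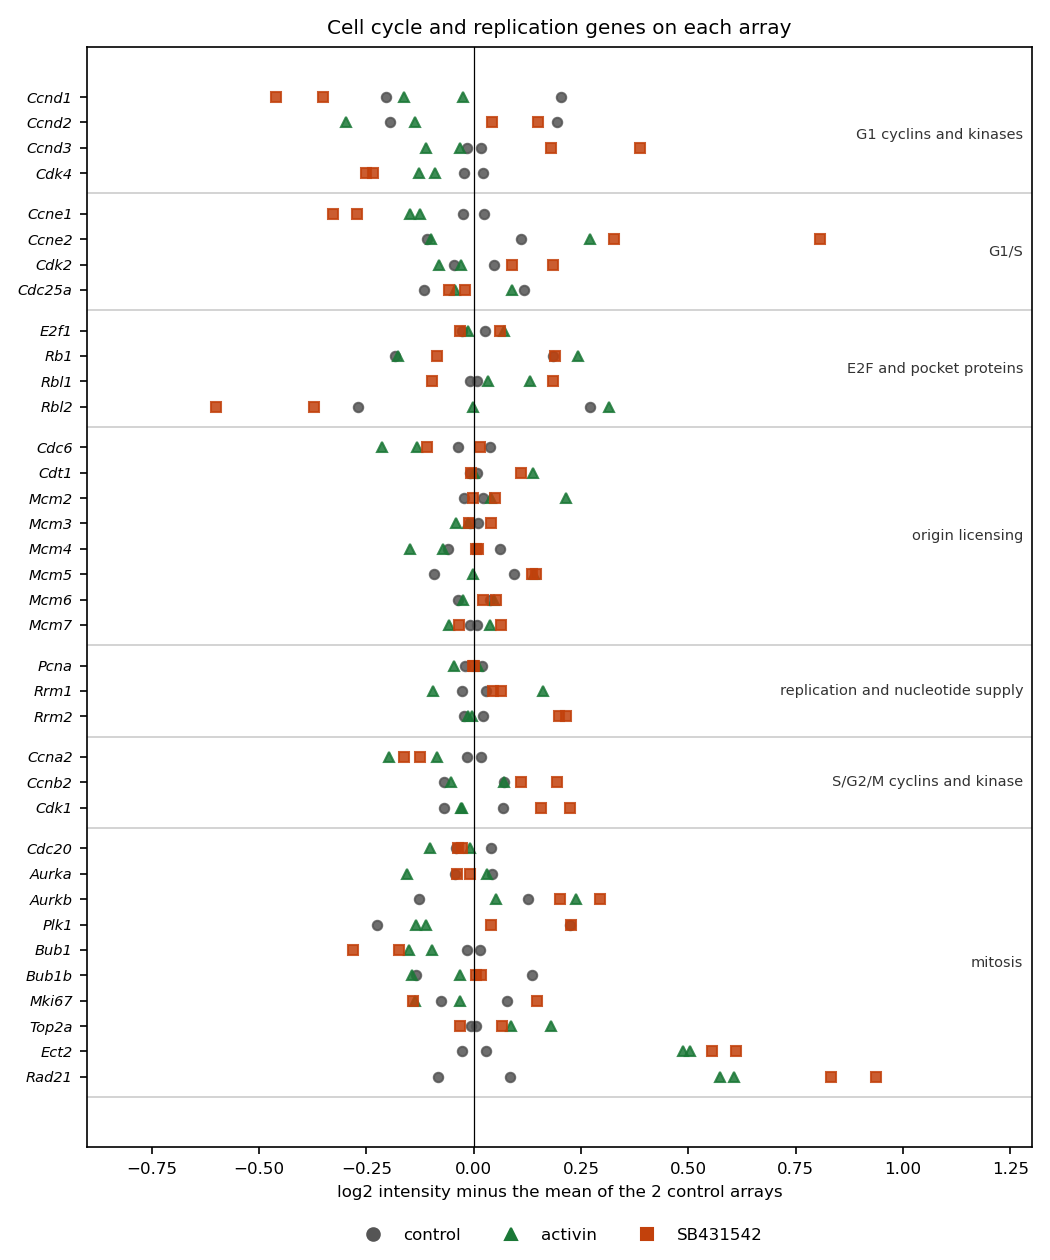
Log2 intensity of each of the 36 members on each array, minus the mean of the 2 control arrays of that gene (horizontal axis), with genes grouped by role (vertical axis), circles for control, triangles for activin and squares for SB431542. Most points lie close to 0, and the triangles and squares of Ect2 and Rad21 stand to the right of both control points.

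The members were bright, and known target genes of the pathways differed between the groups. Mean log2 intensities of the 36 ran from 5.62 (Rbl2) to 13.76 (Pcna), all above 27 probe sets for Bacillus transcripts that were not spiked in, which lay between 3.00 and 5.09. Lefty1 and Lefty2, targets of activin and Nodal signalling, read 1524 to 1756 and 493 to 497 in control, 4089 to 4671 and 1253 to 1348 after activin, and 26 to 48 and 14 to 16 after SB431542. Smad7 and Pmepa1, also targets of the pathway, read 580 to 622 and 258 to 286 in control, 687 to 890 and 398 to 488 after activin, and 365 to 396 and 125 to 150 after SB431542. Id1 and Id3, targets of BMP signalling, lay in the opposite order, at 2951 to 4298 and 2025 to 2031 in control. They read 1768 to 2073 and 956 to 1014 after activin, and 5308 to 5483 and 2755 to 2892 after SB431542. With the limma intensity trend, Lefty2, Pmepa1 and Id3 passed for activin against control. Lefty1, Smad7 and Id1 did not (adjusted p = 0.341, 0.333 and 0.194, same fit). For SB431542 against control all of these targets but Id1 passed (adjusted p = 0.122 for Id1, same fit).

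Markers of cell types shifted with SB431542. The summed intensity of 9 ES cell markers was 45174 to 45980 on the SB431542 arrays and 50927 to 52252 on the other arrays, and 6 of the 9 passed with the intensity trend (Klf4 higher, and Pou5f1, Nanog, Tfcp2l1, Tdgf1 and Dppa5a lower). The summed intensity of 6 trophoblast markers was 3305 to 3660 after SB431542 and 1806 to 2035 elsewhere. Tfap2c made up most of this sum, at 1303 and 1490 in control and 2556 and 2274 after SB431542. Of the 6 markers, Hand1, Gata3, Ascl2 and Tfap2c rose, Cdx2 read 151 to 264 over the 6 arrays and Elf5, a gene that defines the lineage, 13 to 21. The sum of 6 fibroblast markers was 204 and 211 on the SB431542 arrays and 264 to 357 on the others, and Col1a1, a collagen gene of that list, fell by 0.98 after SB431542 (adjusted p = 0.0172 with the limma intensity trend). Sums ran from 206 to 329 over the 6 arrays for 6 markers of extraembryonic endoderm and from 468 to 588 for 4 of neuroectoderm. Of the latter, Pax6 rose by 0.74 after SB431542 (adjusted p = 0.00825 with the limma intensity trend). The other neuroectoderm markers Sox1, Nes and Neurod1 went the other way, with differences of −0.67, −0.35 and −0.66, and none of them passed. The part of these shifts in the cell cycle values after SB431542 was not tested. In RNA from whole cultures, fewer cells of a type and less RNA per cell cannot be told apart.

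The promoters of these genes carry 3 short motifs long tied to their timing. E2F sites (searched as the core TTGGCGC, as its form TTCGCGC, as the form TTGCCGC and as the form TTCCCGC) mark genes of G1/S, and the cell cycle homology region CHR (TTTGAA, or its variant form TTCGAA) with CCAAT, the box bound by NF-Y, marks genes of G2 and mitosis. RefSeq windows from 250 bases before to 50 after the transcription start (build GRCm38.p6) were found for 29 of the 37 genes, in 32 windows, and were searched on both strands. The windows of Aurkb, Ccna2, Ccnd1, Ccnd2, Ccne2, Mcm4, Rad21 and Rb1 were not used here. The next 4 windows are printed 5′ to 3′ on the strand of the gene, with every match in capitals. They show a licensing gene, the mitotic kinase, and the only genes with a window among the 4 that passed for SB431542.
Mcm6: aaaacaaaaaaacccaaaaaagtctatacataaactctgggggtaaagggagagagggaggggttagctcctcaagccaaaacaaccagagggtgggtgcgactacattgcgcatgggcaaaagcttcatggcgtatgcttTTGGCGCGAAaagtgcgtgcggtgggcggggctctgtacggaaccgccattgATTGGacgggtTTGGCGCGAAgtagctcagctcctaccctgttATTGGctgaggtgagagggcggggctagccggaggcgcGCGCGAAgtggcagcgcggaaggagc
Cdk1: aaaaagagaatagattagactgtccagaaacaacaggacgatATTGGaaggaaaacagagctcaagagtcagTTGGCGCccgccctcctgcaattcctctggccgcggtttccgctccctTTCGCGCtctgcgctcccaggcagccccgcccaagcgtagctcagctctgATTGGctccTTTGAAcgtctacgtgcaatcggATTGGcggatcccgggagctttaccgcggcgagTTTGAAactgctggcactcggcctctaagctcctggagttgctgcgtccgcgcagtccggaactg
Ect2: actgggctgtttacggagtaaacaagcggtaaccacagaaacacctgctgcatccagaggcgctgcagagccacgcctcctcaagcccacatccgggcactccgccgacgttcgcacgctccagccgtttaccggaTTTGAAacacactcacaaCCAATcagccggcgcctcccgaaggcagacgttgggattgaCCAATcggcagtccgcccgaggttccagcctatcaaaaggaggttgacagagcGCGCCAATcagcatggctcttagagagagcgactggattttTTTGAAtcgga
Ccne1: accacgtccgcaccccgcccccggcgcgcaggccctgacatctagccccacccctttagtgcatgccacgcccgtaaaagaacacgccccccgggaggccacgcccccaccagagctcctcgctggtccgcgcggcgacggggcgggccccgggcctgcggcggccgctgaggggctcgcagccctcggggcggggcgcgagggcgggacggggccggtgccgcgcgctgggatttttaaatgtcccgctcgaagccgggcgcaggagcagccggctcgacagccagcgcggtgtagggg
These are chr1:128359656-128359955 for Mcm6, chr10:69352863-69353162 for Cdk1, chr3:27153829-27154128 for Ect2 and chr7:38107441-38107740 for Ccne1, all on the minus strand. Mcm6 held E2F cores, some of which overlap on opposite strands, and NF-Y boxes but no CHR, Cdk1 held all 3 motifs, and the Ect2 window held CHR and NF-Y boxes with an E2F core that lies across an NF-Y box. The Ccne1 window held none of the 3.

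Over the 29 genes, 15 (51.7%) held an E2F core, 13 (44.8%) a CHR and 22 (75.9%) an NF-Y box. The same searches found an E2F core at 13.7% of 17492 protein-coding genes, a CHR at 20.2% and an NF-Y box at 42.3%. Over all 27025 genes of the promoter table the shares were 10.9%, 21.7% and 41.1%. Among origin licensing genes 6 of 7 held an E2F core and 2 of 7 a CHR, and among mitosis genes 8 of 8 held both a CHR and an NF-Y box and 2 of 8 an E2F core. In Ect2 and Ccnb1 every E2F match overlapped an NF-Y box, which leaves 13 genes with a match clear of one. The median GC content was 58.33% in the members' windows, 56.33% in those of protein-coding genes and 52.67% in the whole table. A match describes the letters only. The 3 genes with none were E2f1, Cdk4 and Ccne1.

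**Figure D2:**
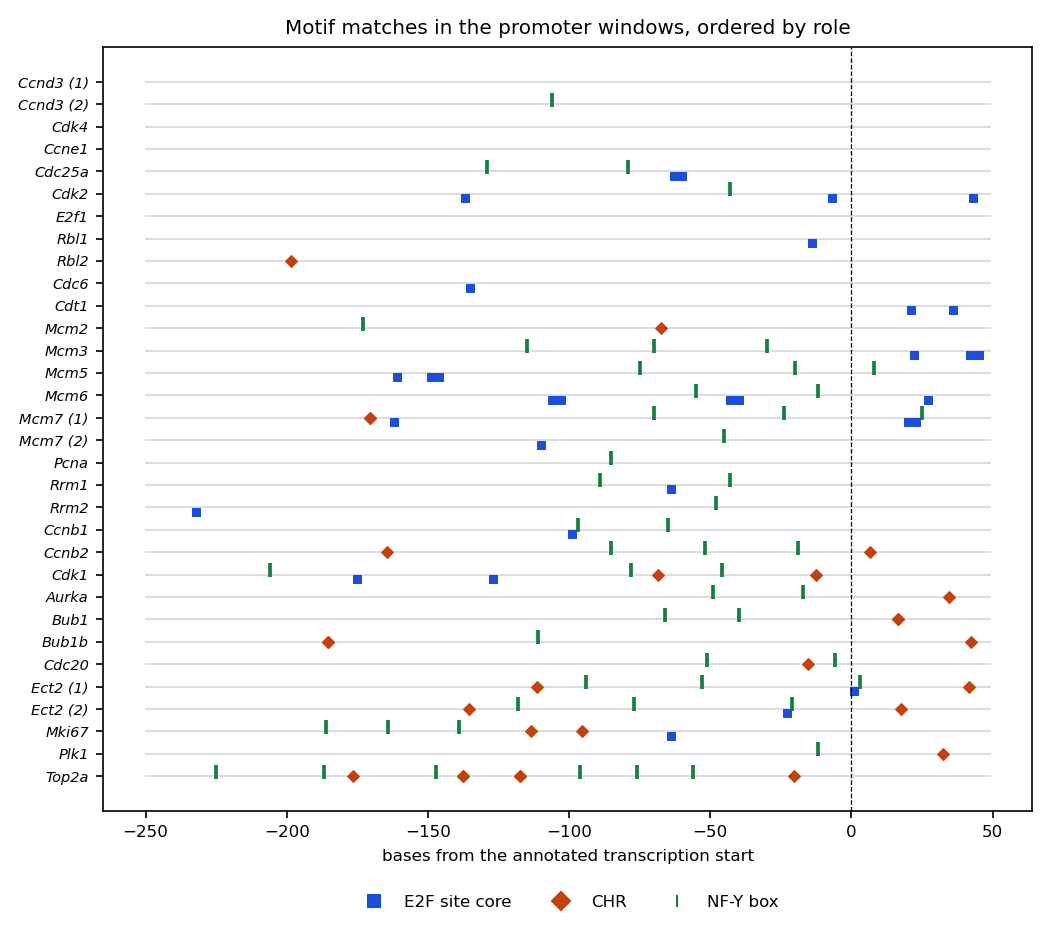
Positions of the motif matches in the promoter windows of 29 genes, in bases from the annotated transcription start (horizontal axis), with genes in the order of their roles (vertical axis), and genes with 2 windows shown on 2 lines. Squares are E2F cores, diamonds CHR and bars NF-Y boxes, and the 8 mitosis genes at the foot all hold diamonds and bars.

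The D cyclins did not share a direction after SB431542. Ccnd1, the D cyclin most tied to mitogen signals, read 1750 and 1320 on the control arrays, 1358 and 1493 after activin and 1105 and 1192 after SB431542. Both SB431542 values lay under every other array, but the control arrays were themselves wide apart (log2 10.57 ± 0.29, SD, n = 2, against 10.16 ± 0.08 after SB431542). The difference was −0.41 ± 0.17 (SE), with an adjusted p of 0.410 at limma's default settings and 0.0206 with the intensity trend. Leaving out single arrays gave differences from −0.61 to −0.20 and adjusted p-values from 2.18e-04 to 0.375 with the intensity trend in limma, and the call was lost without control replicate 1 and without SB431542 replicate 1. The other probe sets of Ccnd1 differed by −0.20 ± 0.12 and 0.02 ± 0.12 (SE), and neither passed.

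Ccnd3, another D cyclin, read 1247 and 1275 in control, 1234 and 1167 after activin and 1649 and 1429 after SB431542. The SB431542 arrays were thus the highest, and activin and control lay close together. Against control the difference after SB431542 was 0.28 ± 0.13 (SE; adjusted p = 0.0920 with the limma intensity trend). Activin minus SB431542 was −0.36 ± 0.13 (adjusted p = 0.0407 with the limma intensity trend, 0.528 at default settings), and this call was lost when either SB431542 array or either activin array was left out. Its dimmer probe sets ran at 13 to 18 and at 55 to 134 and gave differences of the opposite sign.

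Ccnd2 read 135 to 190 over all arrays, with the control arrays at 190 and 145, and its differences were 0.10 ± 0.17 after SB431542 and −0.22 ± 0.17 after activin. Cdk4, the kinase of the D cyclins, read 4195 and 4068 in control, 3879 and 3781 after activin and 3472 and 3512 after SB431542. The 3 groups did not overlap. The difference after SB431542 was −0.24 ± 0.11 (adjusted p = 0.0509 with the limma intensity trend), just short of the threshold. A second probe set of Cdk4 gave −0.26 ± 0.14 and the third 0.11 ± 0.14.

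At the G1/S step the E cyclins pointed in opposite directions. Ccne1 read 2586 and 2499 in control, 2294 and 2331 after activin and 2026 and 2104 after SB431542. The arrays of each group agreed closely, and the groups did not overlap. Ccne1 fell by 0.30 ± 0.12 on the log2 scale after SB431542 (adjusted p = 0.0267 with the limma intensity trend, 0.377 at default settings). Without control replicate 1 or without either SB431542 array it no longer passed, with differences from −0.33 to −0.27 over the 6 sets of 5 arrays. The second probe set of Ccne1 differed by −0.04 ± 0.12, at 1224 to 1269 in control and 1187 to 1233 after SB431542.

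Ccne2, the other E cyclin, read 185 and 159 in control, 160 and 207 after activin and 300 and 215 after SB431542. Its SB431542 values were the highest but far apart, and the difference of 0.57 ± 0.23 did not pass (adjusted p = 0.0605 with the limma intensity trend). Cdk2, the kinase of the E cyclins, read 1696 to 1809 in control and 1864 to 1992 after SB431542, a difference of 0.14 ± 0.12. Cdc25a, the phosphatase that activates Cdk2, differed by −0.04 ± 0.14 on its brightest probe set, while a second one read 1141 and 1215 in control and 941 and 868 after SB431542 and passed with the intensity trend (−0.38 ± 0.13, adjusted p = 0.0208 in limma).

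**Figure D3:**
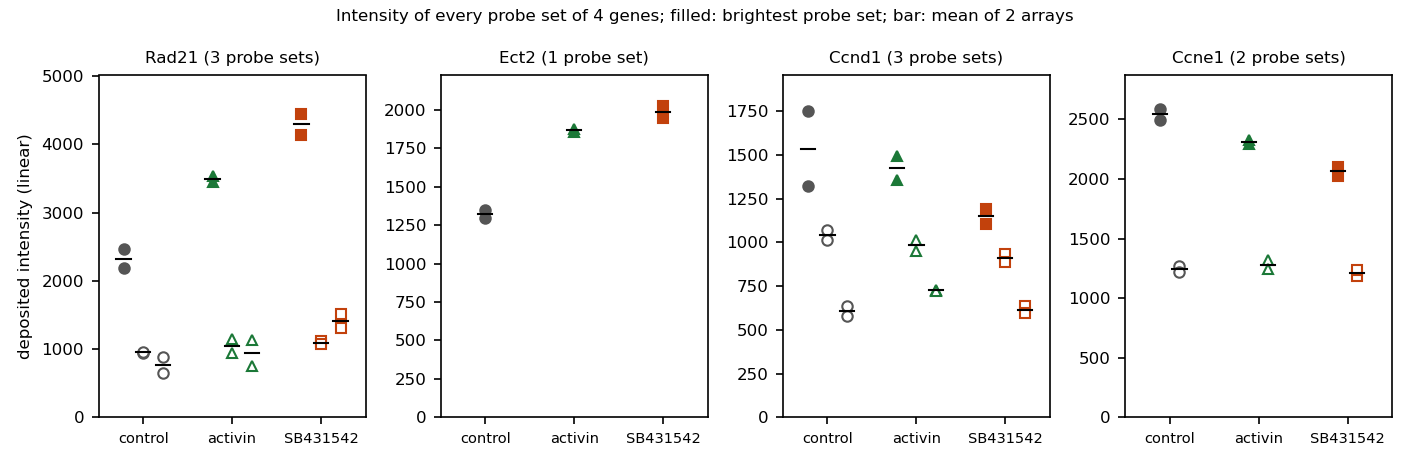
Deposited intensity (vertical axis, linear, from 0) of every probe set of the 4 members that passed for SB431542, on each array of the 3 groups (horizontal axis), with filled symbols for the brightest probe set and bars for the mean of 2 arrays. The filled symbols separate the SB431542 arrays from control in all 4 genes, and the open symbols do so less clearly for Ccnd1 and Ccne1.

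E2f1 and the pocket proteins gave no call in any comparison. E2f1, an activating E2F and itself an E2F target, read 319 to 342 on the 6 arrays, with differences of 0.01 ± 0.12 after SB431542 and 0.03 ± 0.12 after activin. Rb1 read 200 to 269 and Rbl1 317 to 385, and each treated group overlapped control for Rb1. Rbl2 read 64 and 44 in control, 66 and 53 after activin and 41 and 35 after SB431542. Its difference after SB431542 of −0.49 ± 0.23 had an interval from −1.06 to 0.09, so a change of either kind cannot be told from none for this gene.

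The 8 origin licensing genes had the smallest differences of any role after SB431542, with a median size of 0.030. Their differences from control ran from −0.05 to 0.14, and the outer bounds of their 95% intervals were −0.36 and 0.47. Cdc6 read 1423 to 1499 in control, 1259 to 1332 after activin and 1355 to 1475 after SB431542. Cdt1, which loads the Mcm complex together with Cdc6, read 6893 to 7637 over the 6 arrays. Of the 6 subunits of the Mcm helicase, Mcm6 was at 6144 and 6472 in control, 6515 and 6202 after activin and 6397 and 6532 after SB431542, and every group overlapped the others. Mcm3 and Mcm5, further subunits, differed from control by 0.01 ± 0.11 and 0.14 ± 0.13 (SE) after SB431542. After activin the 8 genes ran from −0.17 (Cdc6) to 0.13 (Mcm2), again with none passing.

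Other probe sets of the Mcm genes gave another picture. For Mcm4 the brightest probe set read 4184 to 4550 in control and 4381 to 4390 after SB431542, but a second one read 2680 and 2573 in control, 2794 and 3843 after activin and 4679 and 4069 after SB431542. That second probe set rose by 0.73 ± 0.19 (adjusted p = 8.08e-04 with the limma intensity trend). Mcm7 went the other way, with 2 of its 4 probe sets passing at −0.28 ± 0.12 and −0.31 ± 0.13 while the brightest differed by 0.01 ± 0.12 and the remaining one by 0.10 ± 0.12. Several of these probe sets carry the suffixes x or s, which Affymetrix gave to sets with probes that can also match other transcripts. Which probe set tracks each transcript best was not tested.

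**Figure D4:**
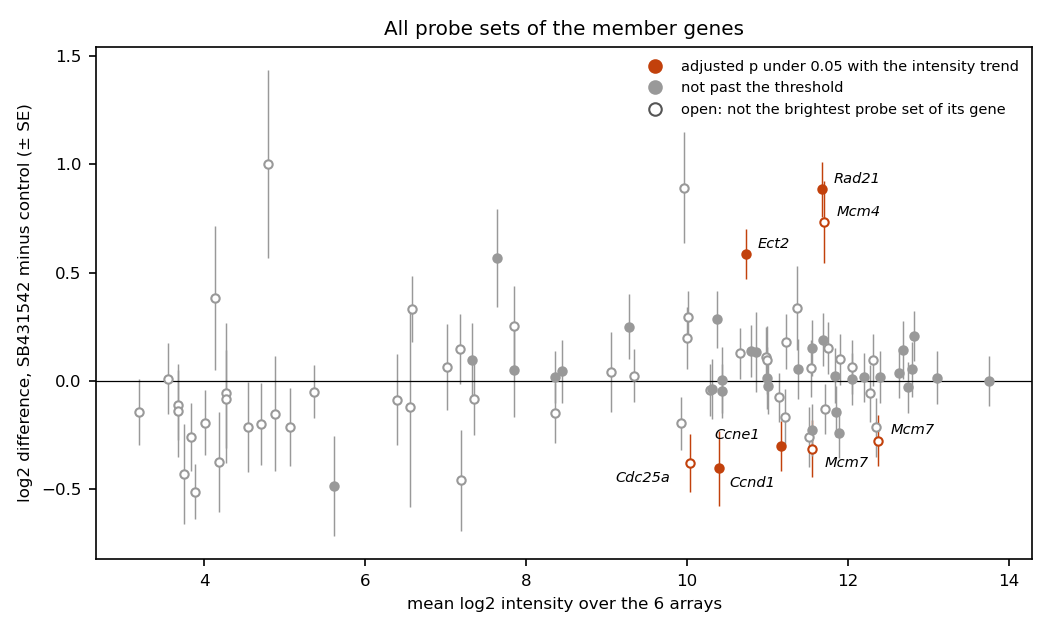
Log2 difference of SB431542 minus control (vertical axis, with SE bars from the default limma fit) against the mean log2 intensity over the 6 arrays (horizontal axis). All 90 probe sets of the 36 members are shown, filled where the probe set is the brightest of its gene. The 8 coloured probe sets passed with the intensity trend, 3 above 0 and 5 below.

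Over all 90 probe sets, 3 were higher and 5 lower with the intensity trend after SB431542, 8.89% of them in 7 genes, against 3.38% of all probe sets higher and 1.60% lower. Besides the 4 genes already named these were Mcm4, Mcm7 and Cdc25a. After activin 2 of the 90 passed (2.22%, against 0.195% of all probe sets higher), the brightest sets of Ect2 and Rad21. By gene, the same rule called 13.1% of genes over log2 8 after SB431542 and 0.323% of them after activin.

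Genes of the replication fork and nucleotide supply were level apart from Rrm2. Pcna, the sliding clamp of DNA polymerases, read 13495 to 14124 over the 6 arrays, and its difference after SB431542 was −0.001 ± 0.12, with a 95% interval from −0.29 to 0.29. Rrm1, the large subunit of ribonucleotide reductase, read 2554 and 2656 in control and 2723 and 2686 after SB431542. Rrm2, its small subunit, read 6786 and 6996 in control, 6871 and 6830 after activin and 7997 and 7903 after SB431542. Both SB431542 arrays of Rrm2 stood above all others, a difference of 0.21 ± 0.11 that did not pass (adjusted p = 0.0577 with the limma intensity trend).

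The cyclins and kinase of S phase to mitosis gave no call either. Ccna2, the cyclin of S phase and G2, read 3919 to 4006 in control, 3458 to 3736 after activin and 3543 to 3635 after SB431542, with differences of −0.14 ± 0.12 after each treatment. Ccnb2, a B cyclin, differed by 0.15 ± 0.13 after SB431542 and 0.01 ± 0.13 after activin. Cdk1, the kinase they share, read 3347 and 3041 in control, 3132 and 3124 after activin and 3727 and 3554 after SB431542. Its SB431542 arrays were above control by 0.19 ± 0.12 (adjusted p = 0.192 with the limma intensity trend).

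Among the 10 mitosis genes, the calls fell on Rad21 and Ect2. On its brightest probe set Rad21 read 2192 and 2461 in control, 3536 and 3455 after activin and 4447 and 4136 after SB431542. The groups were in the order control, activin, SB431542, with no overlap. Rad21 rose by 0.88 ± 0.13 on the log2 scale after SB431542 (adjusted p = 4.96e-10 with the limma intensity trend, 0.165 at default settings) and by 0.59 ± 0.13 after activin (9.34e-05 and 0.789).

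Leaving out any single array kept both Rad21 calls with the intensity trend, at 0.80 to 0.97 after SB431542 and 0.51 to 0.67 after activin. Activin minus SB431542 was −0.30 ± 0.13 (adjusted p = 0.0383 with the limma intensity trend), a call lost when any one of the 4 treated arrays was left out. The second probe set of Rad21 read 947 and 955 in control, 1153 and 944 after activin and 1113 and 1069 after SB431542, a difference of 0.20 ± 0.14 after SB431542 and 0.13 ± 0.14 after activin. The third read 655 and 882, 747 and 1133, and 1512 and 1316 in the same order, which is 0.89 ± 0.26 after SB431542 (adjusted p = 0.0696 with the limma intensity trend) and 0.28 ± 0.26 after activin. All 3 probe sets of Rad21 were thus higher than control in the mean of each treatment, but by unequal amounts, and the mean of the 3 differed by 0.66 after SB431542 and 0.33 after activin, the latter no longer past the threshold.

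Ect2 has a single probe set, which read 1348 and 1297 in control, 1874 and 1855 after activin and 2021 and 1944 after SB431542. All 4 treated arrays stood well clear of control and close to each other. Ect2 rose by 0.58 ± 0.12 on the log2 scale after SB431542 (adjusted p = 2.37e-05 with the limma intensity trend, 0.213 at default settings) and by 0.50 ± 0.12 after activin (0.00317 and 0.789). The SB431542 call held without any single array, at 0.56 to 0.61. The activin call was lost without activin replicate 2, where the adjusted p was the highest of the 6 at 0.0635 with the limma intensity trend. Activin minus SB431542 was −0.09 ± 0.12, with a 95% interval from −0.38 to 0.20.

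The other 8 mitosis genes did not pass. Bub1, a kinase of the spindle checkpoint, read 3306 and 3238 in control, 2946 and 3057 after activin and 2692 and 2899 after SB431542, a difference of −0.23 ± 0.12 after SB431542 (adjusted p = 0.0989 with the limma intensity trend). Its checkpoint partner Bub1b differed by 0.01 ± 0.14, and Cdc20, the activator of the anaphase-promoting complex, by −0.03 ± 0.12. A dimmer probe set of Cdc20 went the other way, at 0.30 ± 0.12 after SB431542 (adjusted p = 0.0840 with the limma intensity trend). Of the Aurora kinases, Aurka differed by −0.02 ± 0.13 and Aurkb by 0.25 ± 0.15, with Aurkb at 521 to 621 in control and 654 to 698 after SB431542. Plk1, the Polo kinase, read 2167 and 1587 on the control arrays, a spread wider than its difference of 0.13 ± 0.19.

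Mki67, which encodes the Ki-67 protein used as a marker of cycling cells, read 1495 and 1344 in control, 1289 and 1387 after activin and 1285 and 1570 after SB431542. Its groups overlapped, with a difference of 0.003 ± 0.15 after SB431542 and a 95% interval from −0.38 to 0.39. Top2a, the topoisomerase that untangles chromosomes, read 5200 to 5246 in control, 5547 to 5914 after activin and 5112 to 5470 after SB431542.

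Set against all genes, the members' differences were small. The median of the 36 was 0.02 for SB431542 against control, −0.01 for activin against control and −0.03 for activin against SB431542, with medians of all genes at −0.002, −0.006 and 0.002. The median size of the difference, whatever its sign, was 0.075, 0.083 and 0.103 in the members in that order of comparisons, 0.187, 0.132 and 0.159 in all genes and 0.140, 0.083 and 0.115 in genes over log2 8. Replicate arrays of the members differed by a median of 0.078 in control, 0.095 after activin and 0.088 after SB431542. These last are differences between single arrays, while the others are between means of 2.

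**Figure D5:**
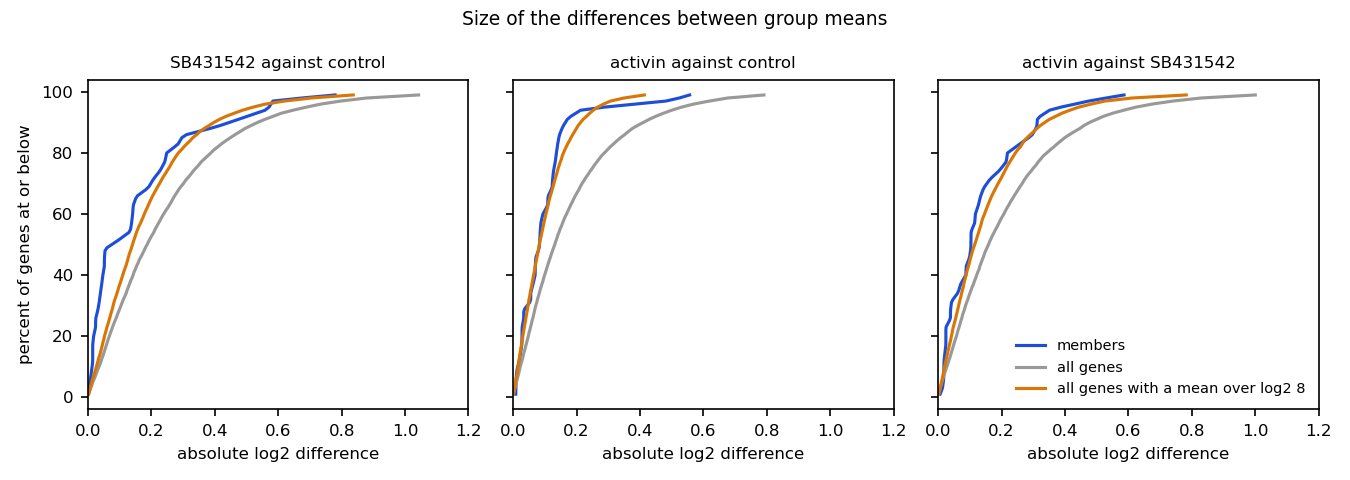
Percent of genes (vertical axis) whose difference between group means is at or below a given size (horizontal axis, absolute log2 difference), for the members, all genes and genes with a mean over log2 8, in the 3 comparisons. The curve of the members lies left of that of all genes in each panel and close to that of bright genes in the activin panels.

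The number of arrays limits the precision of each difference. The 95% interval of the difference lay within 1 log2 unit on either side of 0 for 33 of the 36 members after SB431542 (91.7%, against 81% of all genes and 96.5% of those over log2 8), the exceptions being Rad21, Ccne2 and Rbl2. It did so for 36 of 36 after activin, against 85.4% of all genes and 99.7% of those over log2 8. Between the treatments it did so for 34 of 36 (94.4%, against 83.2% of all genes and 97.8% of those over log2 8).

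Counting members whose treated arrays all lay on one side of both control arrays gave 11 higher and 6 lower after SB431542 (47.2%), against 46.3% of all genes (23.9% higher and 22.4% lower) and 59.6% of genes over log2 8. After activin it gave 5 higher and 8 lower (36.1%), against 30.1% of all genes (14.9% higher and 15.2% lower) and 35.5% of genes over log2 8. Between the treatments 6 members were higher and 14 lower after activin (55.6%), against 42.4% of all genes (19.7% higher and 22.8% lower) and 57.5% of genes over log2 8. Read against bright genes, none of these shares stands out. The members that were lower after activin than after SB431542 on all arrays included Ccnd2, Ccnd3, Ccne2, Cdk2, Rrm2, Ccnb2, Cdk1 and Plk1 as well as Ect2 and Rad21.

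A second list of 100 other cell cycle genes, 99 of them measured, was read in the same way. At default settings 0 of the 99 passed in any comparison, with 9, 0 and 8 at an unadjusted p of 0.05 for SB431542 against control, activin against control and activin against SB431542. These are 9.09%, 0% and 8.08% of the list, against 13.7%, 5.24% and 10.3% of all genes and 13.6%, 1.74% and 9.39% of genes over log2 8. With the intensity trend 5 rose and 4 fell after SB431542 (9.09%, against 6.48% of all genes and 13.1% of genes over log2 8), 0 passed for activin, where 0.148% of all genes did, and 3 were higher and 3 lower after activin than after SB431542 (6.06%, against 3.37% of all genes, 1.26% higher and 2.12% lower, and 6.21% of genes over log2 8).

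By group, against the same 6.48% of all genes and 13.1% of genes over log2 8, the calls after SB431542 took in 2 of 9 E2F genes and partners, 3 of 34 origin and fork genes, 1 of 13 checkpoint and Cdk control genes, 1 of 23 mitosis genes, 1 of 13 cohesin and condensin genes and 1 of 7 Cdk inhibitors. The Cdk inhibitor was Cdkn1a, which encodes p21 and read 876 and 774 in control, 726 and 773 after activin and 419 and 470 after SB431542. Its SB431542 arrays lay well under the other 4, and it fell by 0.89 ± 0.14 after SB431542 (adjusted p = 1.15e-06 with the limma intensity trend, 0.179 at default settings). Cdk6, a kinase partner of the D cyclins, read 425 and 386, 402 and 433, and 267 and 228 in the same order, and fell by 0.72 ± 0.14 (adjusted p = 6.23e-04, limma intensity trend).

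Genes that rose included Anln, which encodes the cytokinesis scaffold anillin and read 2346 and 2604 in control, 2693 and 2704 after activin and 3635 and 3556 after SB431542. Anln rose by 0.54 ± 0.12 after SB431542 (adjusted p = 1.70e-05, limma intensity trend). Uhrf1, which recruits the maintenance DNA methyltransferase at replication forks, rose by 0.52 ± 0.13, E2f5, a repressive E2F, by 0.41 ± 0.13, and Stag1, a cohesin subunit that binds Rad21, by 0.36 ± 0.11. The other cohesin genes Smc1a, Smc3 and Stag2 differed by −0.04, 0.05 and 0.07 after SB431542. The remaining calls, named after their values were seen, were Tfdp1 higher and Pola2 and Lig1 lower. With single arrays left out, Cdkn1a, Cdk6, Anln and Uhrf1 passed with the intensity trend in 6 of 6 fits, E2f5 in 5 and Stag1, Tfdp1, Pola2 and Lig1 in 3 each, with differences of 0.34 to 0.39 for Stag1, 0.20 to 0.39 for Tfdp1, −0.58 to −0.25 for Pola2 and −0.39 to −0.24 for Lig1. The call of E2f5 was lost without SB431542 replicate 1, those of Stag1 and Tfdp1 without either SB431542 array or control replicate 2, and those of Pola2 and Lig1 without either SB431542 array or control replicate 1.

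Between the treatments, Cdk6, Cdkn1a and Cdkn2b were higher after activin than after SB431542 by 0.76 ± 0.14, 0.76 ± 0.14 and 0.82 ± 0.22, and Anln, Uhrf1 and Stag1 were lower by differences of −0.41 ± 0.12, −0.33 ± 0.13 and −0.37 ± 0.11, all 6 past the threshold with the intensity trend in limma. With single arrays left out, Cdk6 and Cdkn1a passed in 6 of 6 fits, Anln in 5, Cdkn2b in 4 (at 0.64 to 1.005), Uhrf1 in 3 (at −0.43 to −0.22) and Stag1 in 2. The arrays whose loss ended the call were SB431542 replicate 1 for Anln, activin replicate 1 and SB431542 replicate 2 for Cdkn2b, activin replicate 1 and either SB431542 array for Uhrf1, and any of the 4 treated arrays for Stag1. Activin against control gave differences from control of 0.13 ± 0.12 for Anln, −0.14 ± 0.14 for Cdkn1a and 0.04 ± 0.14 for Cdk6, none past the threshold.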

How the data were processed

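Probe set intensities of 6 arrays were analysed, 2 per group, with groups taken from the sample titles. The deposited intensity values are whole numbers on a linear scale that the authors made with RMA, per the submitters' processing notes (background correction, quantile normalization of probes and a summary per probe set). For the RMA version and the genome build, nothing is given in the sources used here. The design text names the smaller A array, while the table holds the 45101 probe sets of the whole-genome version. Array medians ran from 37 to 49.

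Values were converted to log2 with no further normalization, and 64 control probe sets were left out. A platform table gave a single gene symbol to 34945 of the other 45037 probe sets, several to 932 and none to 9160. All 6 arrays were fitted in limma 3.58.1 (R 4.3.3) with a mean per group and default eBayes (3 residual and 2.51 prior degrees of freedom), and again with an intensity trend and robust estimation. Adjusted p-values are Benjamini-Hochberg over all 45037 probe sets. The fit was run on simulated arrays to check that it returned an added change, which does not test the calls reported here.

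All 37 listed genes were named. Further probe sets that differed in call from the brightest one were described, and some that differed in sign by over 0.3 log2 units. Sets of Bub1b, Ccnd2, Cdt1, Mcm5, Mcm6, Rb1, Rbl1 and Rbl2 that differed in sign by this much were not described. None of those passed with the intensity trend. Of the other cell cycle genes past the threshold, at most the 6 with the smallest p in each comparison were to be named. The further calls for SB431542 against control were named as well, after their values were seen. Smc1a, Smc3 and Stag2, which did not pass, were added beside Rad21 and Stag1. The 6 pathway targets served as checks. The members and lists were chosen with earlier results of these data known. The main fits did not pair arrays by the replicate numbers of the titles. Alternatives were the replicate block, quantile and median normalization, a filter on dim probe sets, an offset added before log2, fits of 2 groups, the mean of a gene's probe sets, and leaving out each array. The number of arrays limits the precision.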

Additional observations from a re-analysis of the deposited data

How the results depend on the processing

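At limma's default settings 0 members passed in any comparison under every alternative run, leaving out single arrays and the replicate block among them. Counts moved with the variance prior. With the intensity trend 4 members passed for SB431542 against control, 2 for activin against control and 2 for activin against SB431542. Leaving out single arrays with the intensity trend moved these counts in each comparison, and it also moved the counts over all probe sets. With the intensity trend and the mean of a gene's probe sets, 3 passed for SB431542 (Ect2, Rad21 and Mcm4 higher), 1 for activin (Ect2) and 0 between the treatments. The same fits called 608, 10 and 315 in that order, over all averaged genes and the probe sets without a single symbol.

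The deviations of same-numbered arrays correlated at −0.14 between control and activin, 0.02 between control and SB431542 and −0.09 between activin and SB431542. These values gave no sign that the replicate numbers pair the arrays, but a correlation over all probe sets cannot exclude pairing. With the intensity trend and the replicate block 5 members passed for SB431542 against control (Ccne2, Ect2 and Rad21 higher, Ccnd1 and Ccne1 lower), 2 for activin against control and 2 for activin against SB431542. Over all 45037 probe sets the same fits called 2228, 157 and 1057 in that order.

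The members' median for SB431542 against control was −0.026 after repeated quantile normalization, −0.0045 with columns shifted to 1 median and −0.0071 with the mean of a gene's probe sets, in place of 0.021, and 0.019 to 0.042 without single arrays. For activin against control it was −0.079 with shifted columns and −0.031 to −0.0059 without single arrays. For activin against SB431542 it was −0.071 with shifted columns, −0.058 with the mean of probe sets and −0.072 to 0.0051 without single arrays. So the sign was not settled for SB431542 against control and for activin against SB431542, while the median for activin against control stayed below 0. The members' median size of the difference after SB431542, 0.075 in the main fit, was 0.121 with the mean of a gene's probe sets. Without single arrays it was 0.075 to 0.144. After activin it was 0.083 with the mean of probe sets and 0.064 to 0.132 without single arrays. The size over all genes is not given for these settings. Rad21 and Ect2 kept their sign under every alternative, at 0.66 to 0.97 and 0.53 to 0.61 after SB431542 and 0.33 to 0.67 and 0.43 to 0.52 after activin, as did Ccnd1 (−0.61 to −0.19) and Ccne1 (−0.35 to −0.17) after SB431542. The difference of Ccnd3 between the treatments, −0.36 and past the threshold with the intensity trend, turned to 0.19 with the mean of its 3 probe sets (adjusted p = 0.842 with the limma intensity trend), and the cause was not tested beyond the opposite sign of its dimmer probe sets.

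Over all probe sets the default count for SB431542 against control was 7. It became 2242 with the intensity trend, 791 with shifted columns, 41 with an offset, 40 after quantile normalization, 21 without dim probe sets, and 0 with 2 groups, with the replicate block or without any single array. For activin against control 0 became 97 with the intensity trend and 78 with shifted columns. For activin against SB431542 9 became 1024 with the intensity trend, 412 with shifted columns, 64 with an offset, 49 after quantile normalization, 30 without dim probe sets, 1 with the replicate block, and 0 with 2 groups or without any single array.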
